A study of Homo sapiens with 9 samples.

Results

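HCA2 is a line of human foreskin fibroblasts, and PD-L1 is the surface protein encoded by CD274. Senescent HCA2 cells were sorted into a PD-L1-positive and a PD-L1-negative fraction, and messenger RNA of each fraction was sequenced in 3 libraries. These 6 libraries, of 9 in the series, are compared here; they were chosen by their PD-L1 label among the libraries labelled as senescent. Both fractions had been exposed to 100 nM doxorubicin, which damages DNA, over 24 hours. BI-2536, which blocks the mitotic kinase PLK1, followed at 100 nM until 12 days had passed, with the stated purpose of removing cells that still divided. The other 3 libraries, from normal cells labelled proliferative, also carry the PD-L1 label positive and are given only as levels. All cells came from 1 line, and the labels describe neither the gate of the sort nor whether replicates were separate cultures, so p-values measure only the spread between these libraries, which may be technical.

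PD-L1 binds PD-1 on T cells and dampens their activity. Its gene, CD274, is induced by interferon through JAK kinases and IRF1, and the protein is held at the surface by partners such as CMTM6 and removed through ubiquitin ligases such as SPOP. Senescent cells have left the cell cycle for good: CDK inhibitors such as CDKN1A keep RB-family proteins active, and these together with E2F4 in the DREAM complex repress the genes of replication and mitosis. DREAM reaches mitotic promoters through the CHR element, TTTGAA, which often lies near CCAAT boxes bound by NF-Y, and the same promoters are later activated by MYBL2 and FOXM1. Senescent fibroblasts also secrete cytokines, chemokines and proteases, the senescence-associated secretory phenotype (SASP).

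With all 6 libraries, the list with the largest median difference was mitosis, so the promoters of 3 of them are shown with that of CD274. They come from RefSeq on GRCh38.p14, read 5′ to 3′ on the gene's strand, and the 3 mitotic ones were picked after their values were seen because they hold both motifs. Capitals mark TTTGAA and CCAAT, on either strand, in the mitotic promoters at positions -100 to -1 before the RefSeq start; in MKI67 the last pair overlaps. In CD274, over the first 100 bases of the 300-base window that starts 250 bases before the RefSeq start, capitals mark overlapping matches of the core of the interferon-stimulated response element, a pair of GAAA with any 2 bases between, on the opposite strand. CCNB2 lies at chr15:59105046-59105145 (+), MKI67 at chr10:128126424-128126523 (-), CDC20 at chr1:43358881-43358980 (+) and CD274 at chr9:5450292-5450391 (+).
CCNB2: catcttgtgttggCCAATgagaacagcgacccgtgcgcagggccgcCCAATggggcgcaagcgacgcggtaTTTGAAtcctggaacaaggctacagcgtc
MKI67: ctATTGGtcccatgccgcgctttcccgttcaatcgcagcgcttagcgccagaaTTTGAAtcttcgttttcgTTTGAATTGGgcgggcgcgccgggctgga
CDC20: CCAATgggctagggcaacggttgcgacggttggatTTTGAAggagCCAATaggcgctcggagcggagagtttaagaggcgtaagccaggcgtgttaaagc
CD274: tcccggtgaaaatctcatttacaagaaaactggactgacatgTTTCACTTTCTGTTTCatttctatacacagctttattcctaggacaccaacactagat

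Over whole RefSeq promoters, from 250 bases before to 50 after the start, TTTGAA on either strand was present in 30 of the 40 mitosis genes found in the table, against 1278 of 9538 tested genes (13.4%). CCAAT was present in 34 of the 40 (85.0%), against 43.5% of tested genes. Promoters of the DNA replication list held TTTGAA in 4.76% and the E2F site TTTCGCGC in 14.3%. TTTCGCGC was present in 1.25% of tested genes, and the interferon-responsive core in 3.87%. These shares describe the letters of the promoters and say nothing of binding in these cells.

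The deposited values are FPKM, a fragment count corrected for transcript length and library size, summed here per gene symbol. The steps between low values put the apparent depth of the 6 libraries at 11600000 to 16700000 fragments, and 11606 to 11891 genes reached an FPKM of 1 in each. Logged values correlated between libraries at 0.971 to 0.987 across genes. Positive 3 stood apart: small RNA genes took 11.9% of its summed FPKM, against 2.03% to 3.74% in the other 5. MTRNR2L genes and MIR6723 together took 11.7%, against 1.18% to 3.59%, with MIR6723 counted in both shares. Positive 3 also had the highest score on the first principal component (26.4), which held 36.3% of the variance. Negative 2 had the lowest score (-19.5) and the lowest level of most mitosis genes, so values without these libraries are given where they matter.

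CD274 RNA was higher in the PD-L1-positive fraction, but far below its level in normal cells. It stood at 1.23, 1.32 and 1.38 FPKM in the positive libraries, against 0.677, 0.708 and 0.909 FPKM in the negative libraries. Every positive library lay above every negative one. The means were 1.31 ± 0.0738 FPKM in the positive and 0.765 ± 0.126 FPKM in the negative fraction (SD, n = 3 each), a ratio of 1.71. The exact two-sided permutation test gave p = 0.1, the smallest that 3 against 3 libraries allow. In a limma fit over all genes on log2(FPKM + 0.5), the difference was 0.52 with a standard error of 0.15 and an adjusted p of 0.999, so CD274 did not pass the test. CD274 entered that fit, which took genes averaging at least 1 FPKM over the 6 libraries, only through its positive values. Normal cells had 6.23, 3.48 and 2.89 FPKM.

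Nearly all CD274 RNA of the positive fraction was assigned to NM_014143, the transcript that encodes the full-length protein. This transcript had 1.23, 1.32 and 1.38 FPKM in the positive libraries, against 0.677, 0.558 and 0.335 FPKM in the negative libraries. At the apparent depth this corresponds to about 64, 80 and 59 fragments in the positive and 30, 29 and 17 in the negative libraries, so each value rests on few fragments. The log2 difference of the transcript was 0.84 (95% interval 0.27 to 1.40, limma adjusted p = 0.999 over 19730 transcripts with a mean of at least 0.5 FPKM). NM_001267706 had at most 0.000147 FPKM in the positive libraries, against 0.0000377, 0.150 and 0.463 FPKM in the negative libraries. Since the transcripts share exons, their split depends on the authors' quantification.

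**Figure D1:**
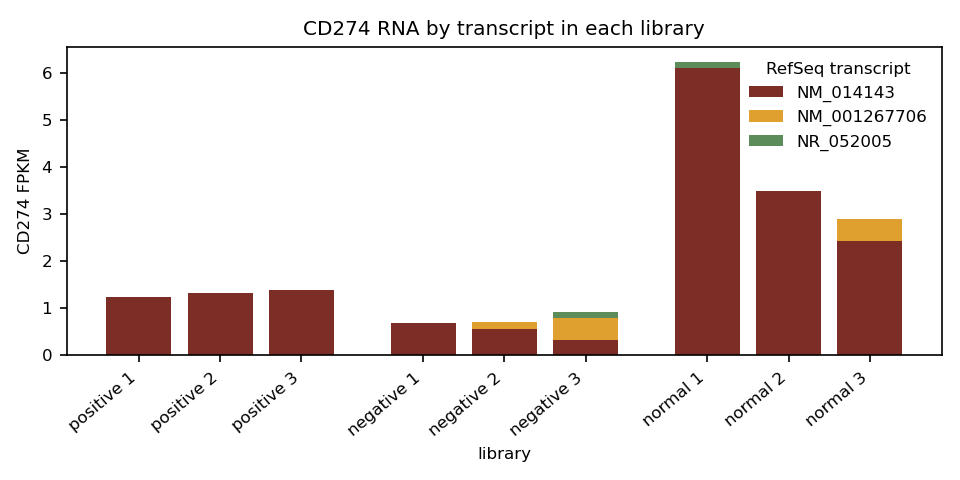
FPKM of the 3 listed CD274 transcripts, stacked, in each library of the PD-L1-positive, PD-L1-negative and normal groups. Positive libraries reach 1.23 to 1.38 FPKM in all, negative ones 0.677 to 0.909 and normal ones 2.89 to 6.23, and NM_001267706 is visible in negative 2, negative 3 and normal 3.

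Other ligands of T cell receptors did not share the difference of CD274. Of 17 tested ligands and ectoenzymes, 12 were higher and 5 lower in the positive fraction, with a median log2 difference of 0.03 (-0.01 without negative 2 and positive 3), beside 0.00 over all 11775 genes tested (genes with a mean of at least 1 FPKM over the 6 libraries). Groups did not overlap for CD274 and ENTPD1 only, both higher; over all genes, 4.36% had every positive library above every negative one and 4.95% every positive library below. PDCD1LG2, which encodes the second ligand of PD-1, had 12.1, 12.4 and 10.3 FPKM in the positive against 10.4, 9.05 and 11.05 FPKM in the negative libraries, which overlapped. NT5E, an enzyme that makes adenosine, had 113, 119 and 94.8 FPKM against 96.8, 86.1 and 88.2 FPKM in the negative libraries, with 1 positive value inside the negative range. CD276 averaged 62.7 ± 8.36 FPKM in the positive and 61.3 ± 6.14 FPKM in the negative fraction (SD, n = 3 each).

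No gene of the interferon route to CD274 separated the fractions. Of its 20 genes, 6 were higher and 14 lower in the positive fraction, none without overlap, and the differences ran from -0.19 to 0.09. The median was -0.03, or -0.06 without negative 2. Once small RNA and MTRNR2L genes were left out of the scaling it was 0.03, beside 0.06 for all genes. JAK1, a kinase of the interferon receptor, had 62.9, 64.5 and 70.4 FPKM in the positive, against 65.0, 60.5 and 74.9 FPKM in the negative libraries. IRF1, the factor that binds the CD274 promoter, had 19.3, 19.5 and 28.6 FPKM in the positive libraries, against 19.4, 25.5 and 32.5 FPKM in the negative libraries. The fractions overlapped for both genes.

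Of 30 tested interferon-stimulated genes, 14 were higher and 16 lower (median -0.02). Without small RNA and MTRNR2L genes in the scaling the median was 0.04, beside 0.06 for all genes. Without negative 2, 22 of 30 were lower (median -0.14); the median was -0.12 without positive 3 and -0.25 without both, when 11 were lower without overlap (37.9%, beside 21.4% of all genes). IFITM3, an antiviral membrane protein, was the only one without overlap over all 6 libraries, with 475, 386 and 496 FPKM in the positive against 496, 617 and 598 FPKM in the negative libraries, the nearest values being 495.9 and 496.4. Of 20 genes of MHC class I and peptide loading, 8 were higher and 12 lower (median -0.04, and 0.02 with that scaling or 0.01 with quantile normalization). B2M, the light chain of MHC class I, had 1354, 1264 and 1433 FPKM in the positive libraries, against 1390, 1512 and 1504 FPKM in the negative libraries.

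Transcription factors linked to CD274 did not separate the fractions either, with 10 of 17 higher, 7 lower and none without overlap (median 0.01, and -0.05 without negative 2). HIF1A averaged 169.2 ± 12.1 FPKM in the positive and 167.1 ± 3.03 FPKM in the negative fraction (SD, n = 3 each). EZH2, a histone methyltransferase that is also a target of E2F, had the largest difference in that list: 3.33, 3.76 and 4.80 FPKM in the positive against 2.92, 1.96 and 3.48 FPKM in the negative libraries, which overlapped. Among 32 tested genes that set the stability of PD-L1 protein, 20 were higher and 12 lower (median 0.03). CMTM6, which shields PD-L1 from lysosomal breakdown, had 45.2, 49.6 and 42.5 FPKM in the positive, against 45.9, 49.4 and 42.9 FPKM in the negative libraries. FKBP5, a co-chaperone whose splice form aids PD-L1 folding, was 1 of 2 higher without overlap (6.25%, beside 4.36% of all genes). It had 3.42, 3.39 and 3.31 FPKM in the positive against 2.46, 2.65 and 2.82 FPKM in the negative libraries.

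No gene passed an adjusted p of 0.05 in the limma fit without a replicate block, in either direction (0 of 11775, 0.0% higher and 0.0% lower). At an unadjusted p under 0.05, 252 genes were higher (2.14%) and 201 lower (1.71%), 453 in all (3.85%). Differences were small: 171 genes differed by at least 0.5 on the log2 scale and 33 by at least 1. The widest gap beyond error was that of UBE2C, the ubiquitin-conjugating enzyme that works with the anaphase-promoting complex at the end of mitosis. UBE2C had 21.5, 19.9 and 23.9 FPKM in the positive libraries, against 11.8, 11.1 and 12.8 FPKM in the negative libraries. The lowest positive value was well above the highest negative one. Its log2 difference was 0.84 with a standard error of 0.0945, and its adjusted p of 0.299 was the smallest of all genes.

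With the replicate block, which compares libraries of equal replicate number, UBE2C was the 1 gene called, higher in the positive fraction (0.00849% of genes). Its standard error was 0.0664 and its limma adjusted p 0.0224. The labels state no pairing. Equal numbers were matched because deviations of these same libraries correlated, so this call rests on a pairing taken from the data. UBE2C kept a limma adjusted p of 0.00203 to 0.0307 with the block under other pseudocounts, scalings or a filter of 5 FPKM. Its limma adjusted p was 0.187 with the block and no intensity trend. The block raised the number of genes at an unadjusted p under 0.05 to 1046, against 453 without it. Apart from UBE2C the block changed no call.

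Mitosis genes as a group were higher in the PD-L1-positive fraction, and their levels in both fractions were below those of normal cells. All 49 tested members were higher (the median log2 difference was 0.51), beside 51.3% of all genes, and 28 of them (57.1%) had every positive library above every negative one, beside 4.36% of all genes. None was lower, and 45 were higher in all 3 pairs of equal replicate number, beside 15.2% of all genes higher and 15.4% lower in all 3 pairs. The list's median level was 7.20, 6.54 and 8.47 FPKM in the positive libraries and 5.95, 3.41 and 6.87 FPKM in the negative libraries; normal cells had 61.3, 32.4 and 15.7 FPKM. The list was chosen with results of these data known, so these counts describe it and are no independent evidence of a direction. In RNA of a bulk sample, a larger share of cells with mitotic RNA and more such RNA per cell cannot be told apart.

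The list covers entry into mitosis, chromosome separation and exit. CDK1, the kinase that drives entry into mitosis, had 11.4, 10.5 and 12.0 FPKM in the positive libraries, against 7.70, 4.59 and 7.26 FPKM in the negative libraries. Its partners CCNB1 and CCNB2 had 20.3, 19.0 and 23.3 FPKM and 11.04, 9.70 and 13.7 FPKM in the positive libraries, against 15.0, 10.96 and 18.9 FPKM and 8.21, 4.97 and 9.50 FPKM in the negative libraries. For these 3 genes the fractions did not overlap, though positive 2 and negative 3 were close for both cyclins. The log2 difference was 0.78 for CDK1 (standard error 0.18), 0.49 for CCNB1 and 0.60 for CCNB2, and none passed the test.

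TOP2A, which untangles sister chromatids, had 23.7, 22.8 and 26.8 FPKM in the positive against 17.5, 10.2 and 16.4 FPKM in the negative libraries. AURKB, the kinase of the chromosomal passenger complex, had 6.19, 6.80 and 6.98 FPKM against 4.77, 3.11 and 4.43 FPKM in the negative libraries. MKI67, the proliferation marker that coats mitotic chromosomes, had 4.65, 4.49 and 6.09 FPKM against 3.97, 1.64 and 4.02 FPKM in the negative libraries. All 3 were without overlap, with log2 differences of 0.75, 0.65 and 0.66. The other cell division genes named for their size had log2 differences of 0.62 to 0.72. They were ANLN and IQGAP3, scaffold proteins of cell division, NUF2 and CENPF of the kinetochore, and TRIP13, an ATPase of the spindle checkpoint. IQGAP3 is not a member of the mitosis list. ANLN had 21.2, 21.3 and 24.5 FPKM in the positive and 16.5, 8.27 and 18.0 FPKM in the negative libraries. PKMYT1, which restrains CDK1, had 3.24, 3.15 and 3.51 FPKM in the positive libraries, against 2.05, 1.92 and 2.28 FPKM in the negative libraries, clear of overlap.

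Other members overlapped between the fractions. PLK1, the target of BI-2536, had 11.7, 9.39 and 12.8 FPKM in the positive against 9.18, 4.47 and 9.97 FPKM in the negative libraries, and CDC20, which activates the anaphase-promoting complex, had 16.7, 16.0 and 21.4 FPKM against 12.0, 9.53 and 17.0 FPKM in the negative libraries. For both, negative 3 lay within the positive range. AURKA, a centrosomal kinase, had 36.8, 21.8 and 37.2 FPKM in the positive and 31.8, 16.3 and 35.5 FPKM in the negative libraries, and so varied more between replicate numbers than between fractions. FOXM1, which activates mitotic genes, had 11.8, 9.99 and 14.6 FPKM in the positive and 9.39, 5.42 and 10.6 FPKM in the negative libraries, again with overlap.

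Negative 2 and positive 3 carried much of the size of the mitosis difference. Negative 2 was the lowest of the 6 libraries for 48 of the 49 members, beside 22.7% of all genes, and positive 3 the highest for 46, beside 21.9%. Without negative 2, 47 of 49 members were higher, 28 without overlap (57.1%, beside 9.49% of all genes), with a median of 0.24. Without positive 3 the median was 0.40, with 48 higher. Without both, 44 of 49 were higher and the median was 0.14, and the 28 members without overlap stood beside 26.6% of all genes for 2 libraries against 2. Within pairs of equal number the medians were 0.23, 0.84 and 0.34. UBE2C did not rest on these libraries: its positive values of 21.5 and 19.9 FPKM in libraries 1 and 2 lay above 11.8 and 12.8 FPKM in negative libraries 1 and 3.

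**Figure D2:**
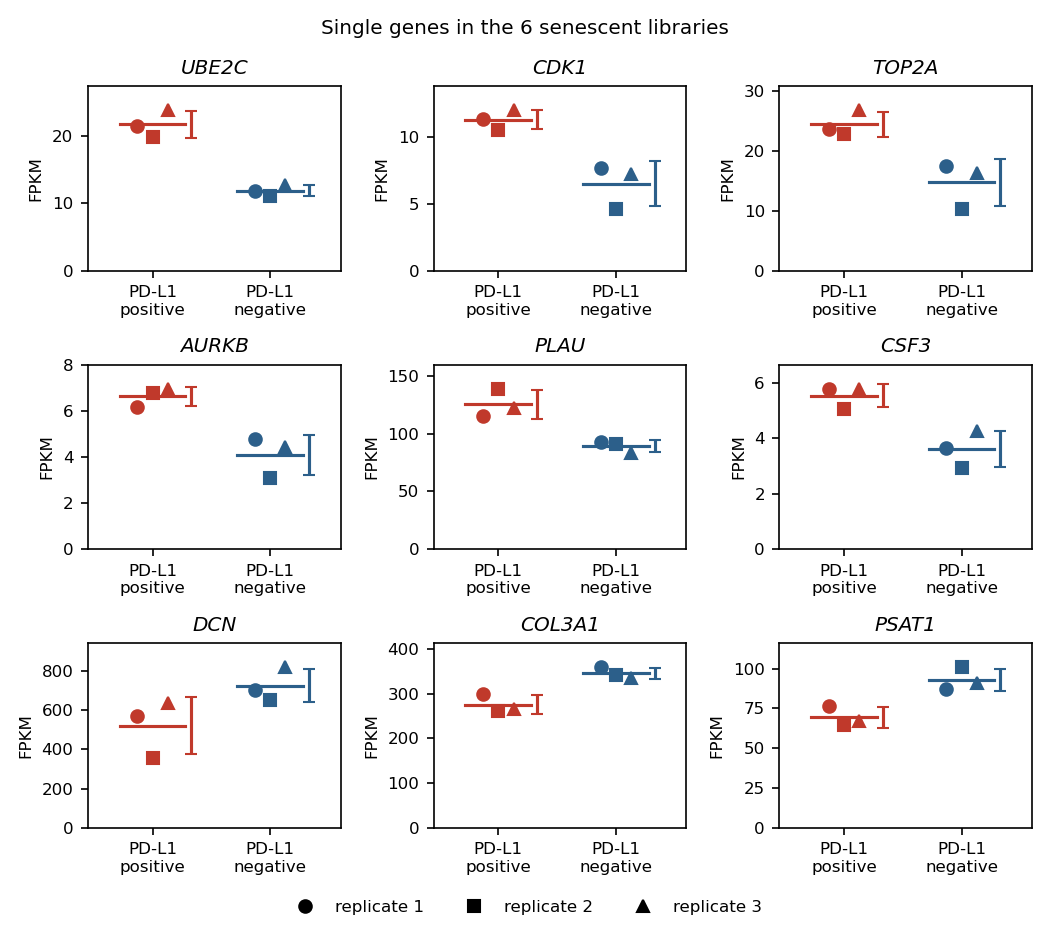
FPKM of 9 genes in each senescent library, PD-L1-positive left of PD-L1-negative, with the replicate number as the symbol, horizontal lines for means and bars at the side for the SD (n = 3 each). UBE2C, CDK1, TOP2A, AURKB, PLAU and CSF3 lie higher in every positive library, and DCN, COL3A1 and PSAT1 lower; negative 2 is the lowest library for CDK1, TOP2A and AURKB.

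Of 48 tested DNA replication genes, 38 were higher and 10 lower in the positive fraction, with a median of 0.14. Every positive library was above every negative one for 17 (35.4%, beside 4.36% of all genes), or for 11 with quantile normalization, and below for 1. Without negative 2 and positive 3 the median was 0.12, close to the 0.14 of the mitosis list at that setting, and the difference between the lists was not tested. RRM2, the regulated subunit of ribonucleotide reductase, had the largest difference, with 21.7, 23.1 and 19.0 FPKM in the positive against 14.8, 11.5 and 16.2 FPKM in the negative libraries. TK1, which salvages thymidine, had 23.7, 24.3 and 25.1 FPKM against 22.1, 18.0 and 20.3 FPKM in the negative libraries. For both genes all positive libraries were above all negative ones. The abundant clamp gene PCNA had 58.8, 55.8 and 65.5 FPKM in the positive and 61.0, 61.1 and 66.6 FPKM in the negative libraries and was lower in each pair. MCM6, a helicase subunit, was the 1 member lower without overlap (10.8, 10.7 and 10.1 FPKM against 11.1, 12.0 and 11.7 FPKM in the negative libraries).

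Genes of chromatin and the nuclear lamina showed small differences in the same direction, with 21 of 26 higher (median 0.09). Of these, 4 were higher without overlap (15.4%, beside 4.36% of all genes). Without negative 2 and positive 3 the list median was 0.07, and 7 were higher without overlap (26.9%, beside 26.6% of all genes). The most abundant members, LMNA and HMGA1, differed by only 0.03 and 0.02. HMGB2, a chromatin protein lost in senescence, had 16.8, 19.3 and 17.4 FPKM in the positive against 14.8, 12.4 and 15.0 FPKM in the negative libraries, without overlap. Of 18 tested replication-dependent histone genes 16 were higher (median 0.21), 1 of them without overlap (5.56%, beside 4.36% of all genes). Without negative 2 the median was 0.33, with 6 higher without overlap (33.3%, beside 9.49% of all genes). Without negative 2 and positive 3 it was 0.39, with 11 (61.1%, beside 26.6% of all genes). HIST1H4E had 2.87, 2.34 and 2.49 FPKM in the positive libraries, against 0.887, 0.373 and 0.779 FPKM in the negative libraries. Its log2 difference of 1.40 (standard error 0.20, limma adjusted p = 0.814) was large but is uncertain: histone H4 genes are nearly identical in sequence, and histone RNA is largely without a polyA tail. HIST1H4E also reached the mean of 1 FPKM needed for testing only through the positive libraries. Its mean was 2.57 FPKM there and 0.680 FPKM in the negative libraries. The abundant HIST1H2AC, with 85.1, 90.0 and 71.9 FPKM in the positive and 78.4, 101.2 and 67.3 FPKM in the negative libraries, overlapped.

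Cell cycle inhibitors and targets of p53 had 26 of 36 members lower in the positive fraction and 10 higher (median -0.07, and -0.03 without negative 2), and 3 were lower without overlap, beside 4.95% of all genes. CDKN1A, which inhibits CDKs in senescence, had 505, 498 and 524 FPKM in the positive libraries, against 542, 686 and 579 FPKM in the negative libraries. Its positive values were close together and below every negative one, with a log2 difference of -0.24 (standard error 0.11). BAX, a driver of apoptosis, had 121.5, 122.0 and 121.2 FPKM in the positive and 125.1, 143.9 and 125.0 FPKM in the negative libraries. CDKN2A, the other senescence inhibitor, overlapped, with 14.5, 11.5 and 15.3 FPKM in the positive and 10.8, 14.6 and 15.2 FPKM in the negative libraries. Once small RNA and MTRNR2L genes were left out of the scaling, 20 were lower and 16 higher (median -0.01) and none was without overlap. That scaling raised the median of all genes to 0.06, with 3405 of 11796 lower and 1.43% lower without overlap.

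Of 22 tested SASP cytokines and chemokines, 16 were higher and 6 lower in the positive fraction (median 0.05), and 4 were higher without overlap (18.2%, beside 4.36% of all genes): CCL5, CSF3, CXCL5 and CSF2. Without positive 3, 12 were higher and 10 lower, and without negative 2 and positive 3, 11 were higher and 11 lower (median 0.02). At that last setting 5 were higher without overlap (22.7%, beside 26.6% of all genes) and 6 lower (27.3%, beside 21.4%). CSF3, which encodes the growth factor of neutrophils, had 5.79, 5.05 and 5.77 FPKM in the positive against 3.64, 2.93 and 4.24 FPKM in the negative libraries. CXCL5, a neutrophil chemokine, had 8.36, 7.61 and 7.58 FPKM against 6.63, 3.90 and 5.98 FPKM in the negative libraries. CCL5, which attracts T cells, had 2.06, 3.53 and 6.23 FPKM against 1.86, 1.93 and 1.34 FPKM in the negative libraries, so its log2 difference of 0.91 rested on positive 2 and positive 3. CSF2 had 1.86, 1.64 and 1.39 FPKM in the positive libraries, against 1.05, 0.881 and 1.25 FPKM in the negative libraries.

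CXCL8, another neutrophil chemokine, and IL1B, an upstream inducer of the SASP, were higher in the positive fraction within pairs. CXCL8 had 76.5, 62.1 and 56.1 FPKM in the positive and 63.2, 50.1 and 46.5 FPKM in the negative libraries, and IL1B had 20.2, 21.5 and 24.4 FPKM in the positive and 13.8, 15.8 and 20.6 FPKM in the negative libraries. Both were higher in 3 of 3 pairs, both overlapped, and both were picked here after their values were seen. The most abundant factors did not follow. IL6 had 398, 304 and 384 FPKM in the positive and 401, 336 and 368 FPKM in the negative libraries. CCL2, which attracts monocytes, was lower without overlap, at 355, 341 and 330 FPKM in the positive libraries, against 364, 466 and 361 FPKM in the negative libraries.

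Among SASP proteases, their inhibitors and growth factors, 14 of 36 were higher and 22 lower (median -0.04). The median was 0.02 with quantile normalization. It was also 0.02 without small RNA and MTRNR2L genes in the scaling, beside 0.06 for all genes. PLAU, the urokinase that activates plasminogen, had 115, 139 and 122 FPKM in the positive libraries, against 92.9, 91.0 and 83.5 FPKM in the negative libraries. MMP1, interstitial collagenase, had 234, 227 and 198 FPKM against 185, 177 and 179 FPKM in the negative libraries. Both were clear of overlap, with log2 differences of 0.49 (standard error 0.0944) and 0.28 (standard error 0.0897). TIMP1, an inhibitor of such proteases and the most abundant gene of the list, had 4611, 3673 and 4416 FPKM in the positive and 4449, 6288 and 5080 FPKM in the negative libraries, which overlapped.

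**Figure D3:**
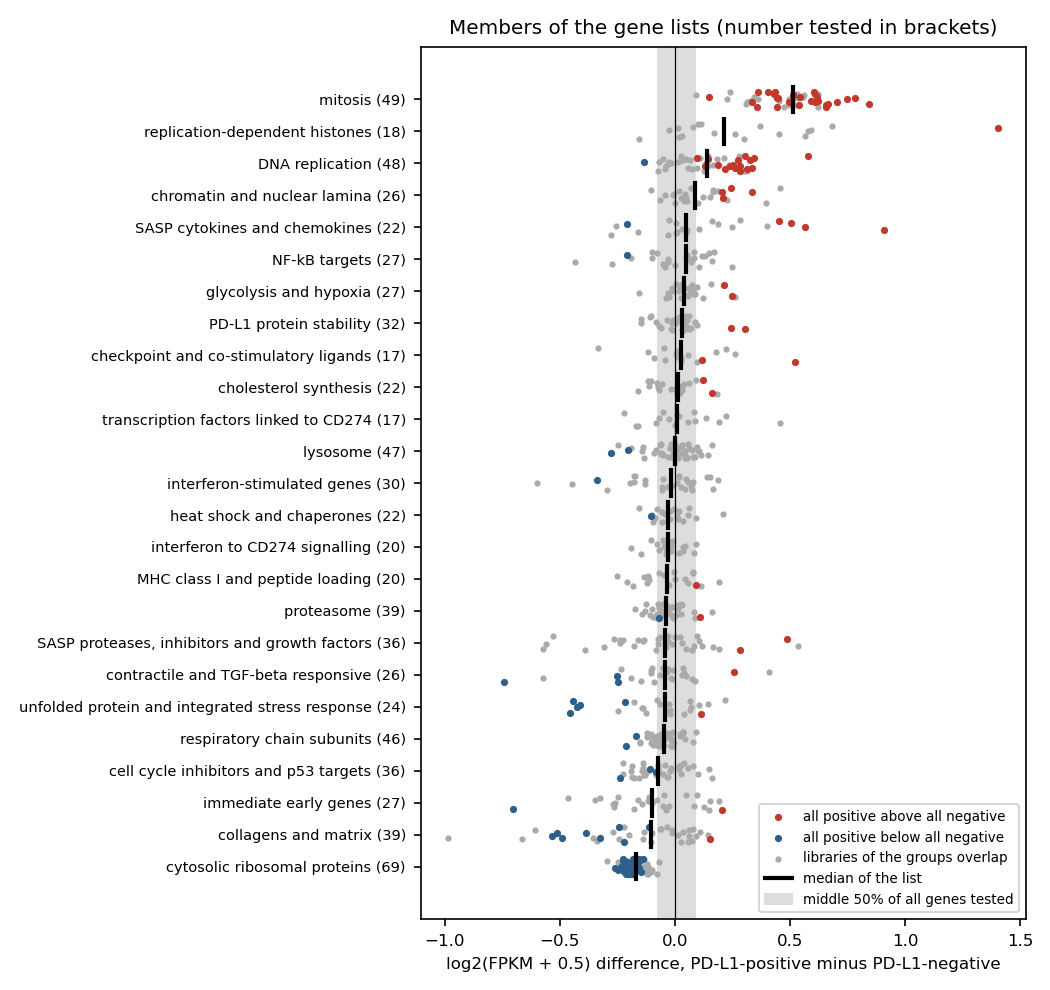
Difference on the log2(FPKM + 0.5) scale, PD-L1-positive minus PD-L1-negative, of every tested member of 25 gene lists; each point is a gene, black bars are list medians and the grey band spans the middle quartiles of all genes. Over all 6 libraries mitosis has the highest median, 0.51, followed by replication-dependent histones at 0.21 (0.24 and 0.33 without negative 2), and cytosolic ribosomal proteins have the lowest, -0.17.

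Matrix genes were lower in the PD-L1-positive fraction for a subset of secreted glycoproteins and collagens. Of 39 tested members, 26 were lower and 13 higher (median -0.11), 8 were lower without overlap (20.5%, beside 4.95% of all genes) and 1 was higher. With quantile normalization 3 members were lower without overlap (7.69%, beside 5.74% of all genes). Without small RNA and MTRNR2L genes in the scaling 22 were lower and 17 higher (median -0.04, beside 0.06 for all genes). At that setting 5 were lower without overlap (12.8%, beside 1.43% of all genes). DCN, the proteoglycan decorin, had 570, 358 and 634 FPKM in the positive libraries, against 704, 651 and 818 FPKM in the negative libraries. POSTN, periostin, had 21.96, 13.6 and 20.8 FPKM against 29.7, 23.7 and 27.5 FPKM in the negative libraries. In both genes positive 2 was the lowest of the 6 libraries, as it was for 17 of the 39 members, beside 17.2% of all genes.

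COL3A1, a fibrillar collagen, had 300.1, 261.7 and 265.5 FPKM in the positive against 359.1, 341.0 and 336.0 FPKM in the negative libraries, and MFAP4, a microfibril protein, had 23.9, 17.5 and 24.3 FPKM against 31.4, 28.4 and 32.1 FPKM in the negative libraries. EFEMP1, a fibulin, had 273, 204 and 287 FPKM in the positive and 321, 293 and 379 FPKM in the negative libraries. These 3 did not overlap, with log2 differences of -0.33, -0.49 and -0.39. COL1A1, the most abundant matrix gene, had 4170, 3921 and 3856 FPKM in the positive and 4406, 5150 and 4399 FPKM in the negative libraries, also without overlap. COL6A1, a chain of the beaded-filament collagen, was the exception above all negative libraries, at 646, 675 and 664 FPKM against 591, 596 and 598 FPKM. FN1, fibronectin, had 2360, 1946 and 2317 FPKM in the positive and 2327, 1850 and 2538 FPKM in the negative libraries and overlapped.

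COMP, a cartilage matrix protein induced by TGF-beta, had 3.96, 3.25 and 5.56 FPKM in the positive libraries, against 6.09, 8.86 and 7.18 FPKM in the negative libraries. ITGA11, a collagen receptor, averaged 23.7 ± 1.87 FPKM in the positive and 28.3 ± 2.65 FPKM in the negative fraction (SD, n = 3 each). Both were without overlap, yet the list of contractile and TGF-beta responsive genes as a whole was near even, with a median of -0.04. Of 26 members 8 were higher and 18 lower. Without small RNA and MTRNR2L genes in the scaling the median was 0.02, beside 0.06 for all genes. ACTA2, the smooth muscle actin of myofibroblasts, had 79.4, 62.7 and 84.6 FPKM in the positive and 90.9, 74.1 and 75.7 FPKM in the negative libraries.

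Of 24 tested genes of the unfolded protein and integrated stress responses, 8 were higher and 16 lower (median -0.05). Over all 6 libraries 5 were lower without overlap (20.8%, beside 4.95% of all genes). Without negative 2 and positive 3 the median was 0.03. With small RNA and MTRNR2L genes left out of the scaling it was 0.02, beside 0.06 for all genes. At that scaling 2 were lower without overlap (8.33%, beside 1.43% of all genes) and 3 higher (12.5%, beside 9.52%). The 3 members with the largest differences without overlap make serine and asparagine, and none passed the test. PSAT1 had 76.6, 64.6 and 66.9 FPKM in the positive libraries, against 87.5, 101 and 90.9 FPKM in the negative libraries. PHGDH, the enzyme before it in serine synthesis, had 36.8, 27.3 and 39.3 FPKM against 41.7, 48.3 and 51.3 FPKM in the negative libraries. ASNS, asparagine synthetase, had 33.5, 25.4 and 34.0 FPKM against 39.7, 42.5 and 43.5 FPKM in the negative libraries. For all 3 the fractions did not overlap, with log2 differences of -0.42, -0.46 and -0.44. HSPA5, the main chaperone of the endoplasmic reticulum, had 282, 311 and 227 FPKM in the positive and 272, 313 and 244 FPKM in the negative libraries.

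Among immediate early genes, 19 of 27 were lower in the positive fraction (median -0.10). Positive 2 was the lowest library for 17 of the 27. The median was -0.18 without positive 3. Without small RNA and MTRNR2L genes in the scaling it was -0.04, beside 0.06 for all genes. EGR2, a growth factor-induced transcription factor, was lower without overlap, with 4.06, 1.51 and 3.10 FPKM in the positive against 5.85, 4.15 and 4.32 FPKM in the negative libraries. JUNB had 507.5, 342.9 and 489.5 FPKM in the positive and 505.7, 539.0 and 539.9 FPKM in the negative libraries. KLF6 was the 1 member higher without overlap, at 25.7, 28.5 and 26.2 FPKM against 24.8, 23.1 and 21.7 FPKM in the negative libraries.

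Ribosomal protein genes were slightly lower in the PD-L1-positive fraction as a block. All 69 tested members were lower, by 0.07 to 0.29 on the log2 scale, and 32 (46.4%) were lower without overlap, beside 4.95% of all genes. RPL5 had 614, 585 and 608 FPKM in the positive libraries, against 670, 786 and 696 FPKM in the negative libraries. The count depends on the scaling: with quantile normalization 12 members were lower without overlap (17.4%, beside 5.74% of all genes). By sign alone, 63 members were lower and 6 higher with that normalization, and 0 were higher without overlap. When small RNA and MTRNR2L genes were left out, none was without overlap, beside 1.43% of all genes lower without overlap. All 69 stayed lower at that setting (median -0.11, beside 0.06 for all genes). Without negative 2 the median was -0.08. Negative 2 moved with it, at a list median 0.27 above the 6-library mean, and so did transcript length. The list's median length was 835 bases, and 62.0% of 815 genes under 1000 bases were lower (median -0.04), against a median of 0.03 for the class of longest genes. The part of length in the result was not tested. Mitosis transcripts had a median length of 2970 bases.

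**Figure D4:**
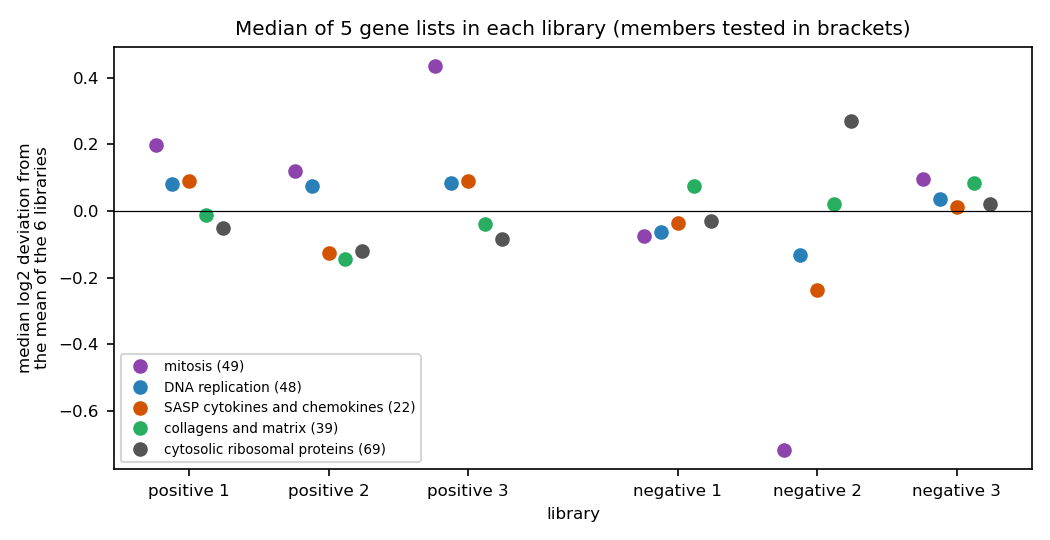
Median log2(FPKM + 0.5) deviation from the mean of the 6 libraries for members of 5 lists, in each PD-L1-positive and PD-L1-negative library. Mitosis runs from 0.44 in positive 3 to -0.72 in negative 2, with the other libraries between -0.07 and 0.20; ribosomal proteins are highest in negative 2 at 0.27.

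Respiratory chain subunits had 38 of 46 members lower (median -0.05), but this direction turned without negative 2, when 32 were higher (median 0.05). Without positive 3 the median was 0.02, and without small RNA and MTRNR2L genes in the scaling 0.01, beside 0.06 for all genes. Of 27 tested genes of glycolysis and hypoxia 21 were higher (median 0.04). The median was 0.15 without negative 2, 0.13 without positive 3 and 0.21 without both. The higher genes included GAPDH with 2965, 3557 and 2621 FPKM in the positive and 2802, 3660 and 2486 FPKM in the negative libraries, which overlapped.

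Pairs of equal replicate number, which the labels do not give as pairs, showed which lists kept 1 direction. In mitosis 47, 49 and 47 of 49 members were higher in pairs 1, 2 and 3, and SASP cytokines and chemokines had medians of 0.12, 0.07 and 0.14. Matrix genes had medians of -0.07, -0.08 and -0.16 within pairs, and in pair 3 only 2 of 39 members were higher. Ribosomal proteins had -0.02, -0.40 and -0.11, with 25, 0 and 1 of 69 members higher, so that pair 1 barely showed the difference. The medians of all genes were 0.01, -0.01 and -0.01.

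**Figure D5:**
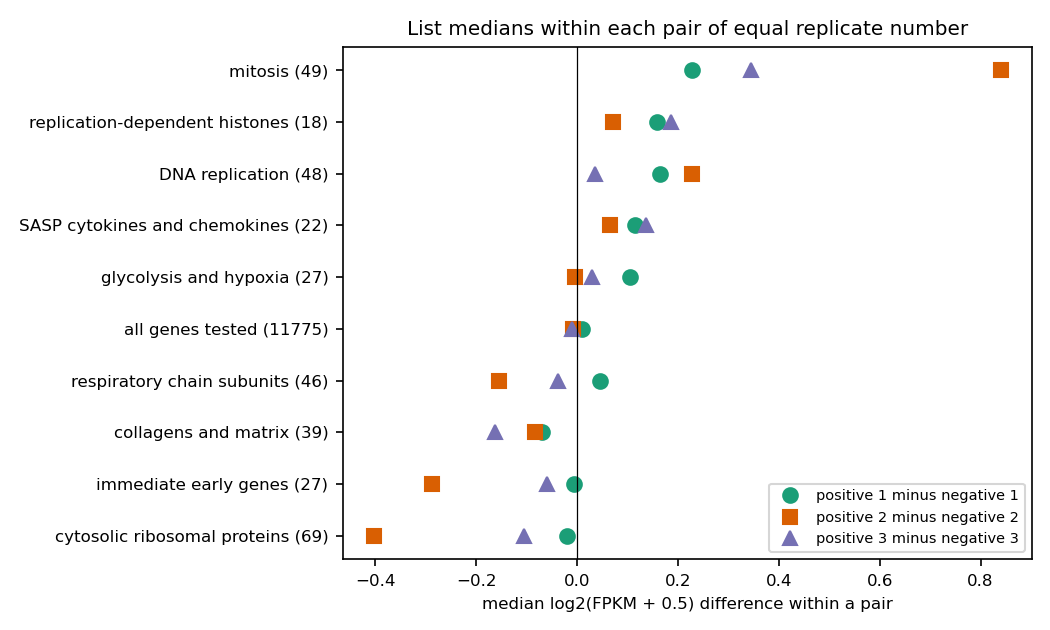
Median log2(FPKM + 0.5) difference, PD-L1-positive minus PD-L1-negative, within each pair of equal replicate number for 9 lists and for all genes tested. Mitosis lies at 0.23, 0.84 and 0.34 and collagens and matrix at -0.07, -0.08 and -0.16, while ribosomal proteins reach -0.40 in pair 2 only.

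The remaining genes named by size or by the lowest p had varied functions. FABP5, a fatty acid carrier, had 12.6, 13.01 and 11.9 FPKM in the positive libraries, against 7.98, 7.41 and 9.13 FPKM in the negative libraries. ALDH1A1, which makes retinoic acid, had 136, 117 and 147 FPKM against 161, 200 and 206 FPKM in the negative libraries. FAM20A, a partner of the secretory kinase FAM20C, had 2.73, 1.96 and 3.52 FPKM against 4.36, 4.54 and 4.64 FPKM in the negative libraries. For these genes the fractions did not overlap, with log2 differences of 0.59, -0.50 and -0.66, and none passed the test.

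APOM, a carrier of sphingosine-1-phosphate, had 1.71, 1.65 and 0.635 FPKM in the positive libraries, against 3.29, 1.99 and 3.35 FPKM in the negative libraries. Its values rest on low levels. INHBB, a subunit of activin B, ADM2, TRH, CARD8 and MORN2 were lower without overlap by 0.39 to 0.56 on the log2 scale. PILRB was higher by 0.65, with 5.65, 8.08 and 11.4 FPKM against 5.57, 4.55 and 4.76 FPKM in the negative libraries. PPAN-P2RY11, a read-through transcript, and CCZ1B and POMZP3, which have near-identical copies, were lower by 0.38 to 0.50 and are uncertain because such genes share reads.

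The cells of both fractions carried the markers of dermal fibroblasts. All 11 were expressed, with a median of 615, 685 and 634 FPKM in the positive and 704, 652 and 818 FPKM in the negative libraries, and 8 of them were lower in the positive fraction, 4 without overlap (36.4%, beside 4.95% of all genes) or 1 with quantile normalization. The 4 included LUM, a matrix proteoglycan (897, 766 and 777 FPKM against 932, 1037 and 913 FPKM in the negative libraries). Of the markers of other cells, 6 of 8 keratinocyte, 5 of 7 melanocyte, 7 of 8 endothelial and 8 of 9 leukocyte genes were below a mean of 1 FPKM. Pericyte and smooth muscle markers differed, with only 2 of 8 below that mean. Of the 6 tested, 3 were higher and 3 lower. That list summed to 115 to 144 FPKM in the positive and 119 to 146 FPKM in the negative libraries. The summed level of the keratinocyte list was 13.01 to 15.7 FPKM in the positive and 15.2 to 17.7 FPKM in the negative libraries, nearly all from KRT10. The leukocyte list summed to 56.8 to 67.7 FPKM in the positive and 54.1 to 63.2 FPKM in the negative libraries, nearly all from CD68, a lysosomal protein. The part of such cells in the results was not tested.

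The authors' deposited table of motif and ChIP-seq track enrichment made with iRegulon holds CD274 among its targets. The table's headers do not say how the input was chosen, and it may have been chosen on these same libraries, so it gives no independent support. In the authors' deposited table the highest motif score (a normalized enrichment score with a minimum of 3) was 11.9, for a cluster led by E2F factors, and the highest track score was 10.4, for E2F4; a FOXM1 track had 8.36 and a cluster of NF-Y motifs 7.61. Of its 210 target genes, 196 were tested here, and 185 were higher in the positive fraction, beside 51.3% of all genes, and 86 were higher without overlap, beside 4.36%, with a median of 0.23. The 32 targets shared with the mitosis list were 15.2% of the targets and 65.3% of that list. The 99 tested targets of the FOXM1 track had a median of 0.36 and the 66 of the MYBL2 track 0.37.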

How the data were processed

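The authors deposited FPKM per RefSeq transcript and an iRegulon table whose enrichment score per motif and track is theirs, per the file headers. The build hg19 and the tools DESeq2 1.22.2, HTSeq 0.11.2 and STAR 2.5.2a are named per the submitters' processing notes; how FPKM were computed is not given in the sources used here. FPKM of 52741 transcripts were summed over 26196 gene symbols, and limma 3.58.1 (R 4.3.3) was fitted to log2(FPKM + 0.5) of the 11775 genes averaging 1 or more over the 6 libraries, with a prior variance trended on intensity, 4 residual degrees of freedom and Benjamini-Hochberg adjustment. Fold changes on this scale understate changes of low genes. The fit was tested on simulated data. Equal replicate numbers were taken as pairs because deviations of same-numbered libraries correlated at 0.105, 0.223 and 0.476, although positive 1 correlated more with negative 2 (0.149); the fit without the block is the main one. Depth came from the smallest steps between FPKM of 7209 genes with 1 transcript of 1500 to 6000 bases, with lengths from GENCODE on GRCh38; counts were not analysed here. Motifs were searched in RefSeq promoters of 300 bases. Genes were named by a rule: CD274, the 12 highest and 12 lowest differences without overlap at a mean of at least 2 FPKM (small RNA genes left out), the 5 lowest p in each direction, and up to 4 largest and 3 most abundant members per list; others, such as those for CD274 regulation, were picked after their values were seen. Some genes that the rule names are not reported here. Members, lists and tests were chosen with earlier results of these data known. Python 3.11.15, pandas 2.3.3, scipy 1.17.1 and matplotlib 3.10.9 were used.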

Additional observations from a re-analysis of the deposited data

How the results depend on the processing

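The count of genes called, 0 in each direction in the fit reported, moved under several alternatives. Higher genes numbered 1 with array weights, 1 with the replicate block (UBE2C in both cases) and 1 with the block combined with a pseudocount of 0.1 or 1, median-of-ratios scaling, quantile normalization or a filter of 5 FPKM, combinations chosen after seeing the data; the block changed no other call. Leaving out single libraries gave 0 to 3 higher and 0 to 1 lower genes, all small RNA genes; leaving out both negative 2 and positive 3, also chosen after seeing the data, gave 2 higher. With the block, leaving out 1 pair, chosen after seeing the data, gave 5, 13 or 26 higher and 1, 1 or 11 lower, with 1 residual degree of freedom. Without a filter 1 gene, RNF5, was lower. CD274 was higher and not called under each alternative that tested it; it missed the filter without any 1 positive library, in the block fit without pair 3 and with the filter of 5 FPKM. Leaving small RNA and MTRNR2L genes out of the scaling moved the median of all genes to 0.06 and the genes without overlap to 1123 higher and 169 lower, against 513 and 583. With 3 libraries a fraction and an apparent 11600000 to 16700000 fragments, differences of genes near 1 FPKM, such as CD274, rest on few fragments.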

Other observations

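Housekeeping lists differed little between the PD-L1-positive and PD-L1-negative fractions. Of 39 proteasome genes 11 were higher and 28 lower (median -0.04, and 0.02 without small RNA and MTRNR2L genes in the scaling). Of 22 heat shock and chaperone genes 8 were higher and 14 lower (median -0.03, and 0.03 with that scaling). The median of all genes with that scaling was 0.06. Of 47 lysosome genes 26 were higher and 21 lower. Cholesterol synthesis had 12 of 22 genes higher, 2 of them without overlap (9.09%, beside 4.36% of all genes). Targets of NF-kB had 15 of 27 higher (median 0.05, and -0.02 without negative 2). CCL2 was the 1 member lower without overlap (3.7%, beside 4.95% of all genes).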
